A study of Mus musculus with 6 samples.

Results

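Carboxypeptidase D (Cpd) and the related metallocarboxypeptidases Cpe, Cpm, Cpn1 and Cpz were examined in mouse CD8+ T cells grown as Tc1 or Tc17 cells. The 5 genes were chosen by symbol with the difference between these groups already known, and each had 1 probe set among the 41345 of the array, which named 22180 genes by a single symbol. Naive CD8+ T cells sorted from spleen were activated for 4 days with antibodies to CD3, at 1 µg/ml, and to CD28, at 3 µg/ml. IL-12 was given for 3 of these days in Tc1 cultures, IL-6 and TGF-beta for the same time in Tc17 cultures, and both then had IL-2 for 1 day. Each group had 2 biological samples and a technical array, which gave 3 arrays per group and 6 in all. The technical array, labelled technical rep2, was read as a second array of biological sample 2, which is not stated outright. The labels name no mouse strain, age or sex. They also do not say whether samples came from separate animals or cultures, so errors measure only the spread between these samples.

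As background, these enzymes are zinc-dependent peptidases that remove a single arginine or lysine from the carboxyl end of a protein or peptide. Such basic ends are left when furin and other proprotein convertases cut precursors in the secretory pathway. Carboxypeptidase D is the transmembrane member that cycles between the trans-Golgi network and the cell surface, and it occurs in many tissues. Carboxypeptidase E acts in the granules of neuroendocrine cells, carboxypeptidase M is held on the outer cell surface by a lipid anchor, CPN1 is the catalytic subunit of a plasma enzyme made in liver, and carboxypeptidase Z lies in the extracellular matrix. Arginine freed by carboxypeptidases D and M can be used by nitric oxide synthases.

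The promoter windows of Cpd and Cpm are shown because the arrays of the 2 groups were separate for these members and for none of the other 3. The arrays were separate in the same way for 29.7% of all genes, so nothing is read from this choice. Each window holds 250 bases before and 50 after the gene start in RefSeq (GRCm38.p6), and RefSeq windows were matched for 4 of the 5 members. The Cpd window is chr11:76846959-76847258, minus strand, and the Cpm window is chr10:117629250-117629549, plus strand. Capitals mark matches, on either strand, to the AHR core GCGTG and the GC box GGGCGG, and to no other motif, since the SMAD core CAGAC and the STAT motif TTCNNNGAA had no match in either window.
Cpd: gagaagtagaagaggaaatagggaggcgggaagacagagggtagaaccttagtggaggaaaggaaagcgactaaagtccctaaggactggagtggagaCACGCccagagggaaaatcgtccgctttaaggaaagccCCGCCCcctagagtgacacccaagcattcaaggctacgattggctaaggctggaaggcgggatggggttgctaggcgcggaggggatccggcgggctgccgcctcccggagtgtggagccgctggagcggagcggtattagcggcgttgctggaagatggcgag
Cpm: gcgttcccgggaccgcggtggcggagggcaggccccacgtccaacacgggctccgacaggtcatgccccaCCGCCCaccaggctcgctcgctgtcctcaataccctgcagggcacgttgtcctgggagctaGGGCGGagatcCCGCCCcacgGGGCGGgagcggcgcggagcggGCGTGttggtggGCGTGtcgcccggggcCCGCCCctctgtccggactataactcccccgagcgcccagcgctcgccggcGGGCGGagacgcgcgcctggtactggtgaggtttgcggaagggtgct

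The Cpd window held 1 AHR core, with its leftmost base at -152 from the gene start, and 1 GC box at -114. The Cpm window held 2 AHR cores, at -76 and -64, and 6 GC boxes. No match overlapped another in these windows. Such matches are common: among 32851 RefSeq windows of the same length, 32.4% held the AHR core, 35.7% the GC box, 49.6% the SMAD core and 8.3% the STAT motif. The GC content was 59.7% for Cpd and 73.7% for Cpm, against a median of 52.7% over all windows. A match describes the letters only.

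Cpd (probe set 17266157) was far brighter in Tc17 cells than in Tc1 cells. On the log2 scale of RMA intensities (the unit of every level here), it measured 6.96 in Tc1 sample 1, and 6.72 and 6.71 on the 2 arrays of Tc1 sample 2. In Tc17 it measured 12.10 in sample 1, and 12.01 and 12.06 on the arrays of sample 2. All 3 Tc17 arrays lay above all 3 Tc1 arrays, with a gap of 5.05 between the dimmest Tc17 and the brightest Tc1 array. The means were 6.84 ± 0.18 in Tc1 and 12.07 ± 0.05 in Tc17 (log2, SD, n = 2 samples, the technical array averaged with sample 2). The difference was 5.23 ± 0.11 (log2, SE), with a 95% interval of 4.94 to 5.52, or 37.6-fold in intensity. This value is part of what led to the choice of the gene, so it is given as a description without a test. In these bulk samples, fewer expressing cells and less RNA per cell cannot be told apart.

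The size of the Cpd difference was much the same in each sample. It was 5.14 between the samples numbered 1 and 5.32 between those numbered 2, and it ran from 5.11 to 5.36 when each biological sample was left out in turn. The technical array differed from its sample's other array by -0.01 in Tc1 and 0.05 in Tc17. Ranked by difference, Cpd was number 2 of the 22180 genes higher in Tc17, behind Il17f. Its Tc1 signal lay above the median of each array (the medians ran from 6.04 to 6.09), but no array gives a detection call, so whether Tc1 cells held Cpd RNA above background was not shown. The fold is therefore one of intensities.

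**Figure D1:**
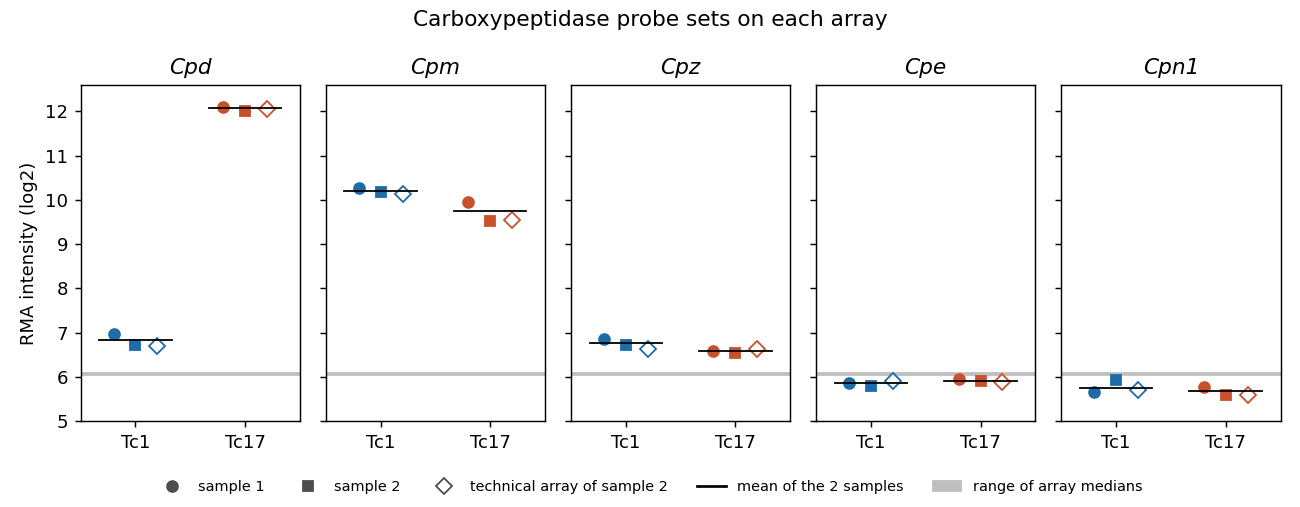
RMA intensity (log2) of the 5 carboxypeptidase probe sets on each of the 6 arrays, with filled circles for sample 1, filled squares for sample 2, open diamonds for the technical array of sample 2, black lines for the mean of the 2 samples and a grey band for the range of array medians (6.04 to 6.09). Cpd sits near 6.84 in Tc1 and 12.07 in Tc17, Cpm is slightly lower in Tc17, and Cpe and Cpn1 lie below the band on every array; heights of different probe sets are not comparable with each other.

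Cpm (probe set 17237547), the gene of the membrane-anchored carboxypeptidase M, had a small difference in the opposite direction. It measured 10.27 in Tc1 sample 1 and 10.17 and 10.14 on the arrays of Tc1 sample 2. In Tc17 it measured 9.96 in sample 1 and 9.52 and 9.54 on the arrays of sample 2. The groups did not overlap, with a gap of 0.18, but Tc17 sample 1 lay closer to the Tc1 arrays than to the other Tc17 arrays. The means were 10.21 ± 0.08 in Tc1 and 9.75 ± 0.31 in Tc17 (log2, SD, n = 2), a difference of -0.46 ± 0.16 (SE), or 1.38-fold lower in Tc17, with a 95% interval of -0.89 to -0.03 that is not adjusted for the number of genes. It was -0.25 without Tc17 sample 2 and -0.68 without Tc17 sample 1.

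Cpz (probe set 17447331), which encodes the matrix-associated carboxypeptidase Z, measured 6.87, 6.72 and 6.63 on the Tc1 arrays and 6.59, 6.55 and 6.64 on the Tc17 arrays, in the order of sample 1, sample 2 and its technical array. The groups overlapped, since the technical array of Tc17 sample 2 was slightly above that of Tc1 sample 2. The difference was -0.18 ± 0.10 (log2, SE), with a 95% interval of -0.43 to 0.07. It was -0.28 without Tc1 sample 2 and -0.08 without Tc1 sample 1.

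Cpe and Cpn1 lay below the median of every array in both groups. Cpe (probe set 17509617), the prohormone-processing enzyme gene, measured 5.86, 5.80 and 5.91 in Tc1 and 5.94, 5.90 and 5.88 in Tc17, again in the order of sample 1, sample 2 and its technical array. Its groups overlapped, and the difference was 0.06 ± 0.07 (log2, SE), with a 95% interval of -0.13 to 0.25. Cpn1 (probe set 17364988), the gene of the plasma enzyme's catalytic subunit, measured 5.65, 5.94 and 5.71 in Tc1 and 5.78, 5.59 and 5.60 in Tc17. Its groups overlapped as well, and the difference was -0.05 ± 0.11, with a 95% interval of -0.34 to 0.23. For Cpn1 the arrays of Tc1 sample 2 differed by -0.22 (technical minus the other), which is larger than the difference between the groups. Signal above background was not shown for either gene, so the intervals bound changes in intensity only.

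In limma's moderated test over all probe sets, 1 of the 5 members, Cpd, passed an adjusted p of 0.05, beside 1.58% of all genes. The arrays of the groups did not overlap for 2 of the 5, Cpd and Cpm, beside 29.7% of all genes. Because the members were chosen with this contrast known, nothing is read from either count.

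The other carboxypeptidases of the array did not share the Cpd difference. None of 23 measured genes passed limma's test (2 had an unadjusted p under 0.05, which 15.9% of all genes had), and their median difference was -0.02 on the log2 scale, beside -0.01 over all genes. The highest of the 23 differences was 0.72, for Ace, the angiotensin-converting enzyme gene, at 6.92 ± 0.13 in Tc1 and 7.64 ± 0.49 in Tc17 (log2, SD, n = 2; limma adjusted p = 0.334). The 95% interval of the Cpd difference began at 4.94. Among the nearest relatives of the 5 members, Cpxm1, Cpxm2 and Aebp1, the differences were -0.10, -0.08 and 0.04, and Cpn2, the partner subunit of CPN1, had -0.08.

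The remaining carboxypeptidases fell into classes by where they act. The 6 measured pancreatic-type genes, which include the mast cell gene Cpa3, lay below the median on every array and had differences between -0.09 and -0.02. Among the 6 cytosolic enzymes that trim tubulin, Agtpbp1 (8.53 in Tc1 and 8.57 in Tc17) and Agbl5 (9.77 and 9.67) had differences of 0.05 and -0.10, and 4 lay below every array median. Among the 8 lysosomal and other enzymes, 6 differences were above 0 and the median was 0.23. Besides Ace, the largest were those of Cpq, at 0.48, and Ctsz, the gene of cathepsin Z, at 0.30 (limma adjusted p = 0.397 and 0.491). Cpq lay below the median on 5 of the 6 arrays.

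**Figure D2:**
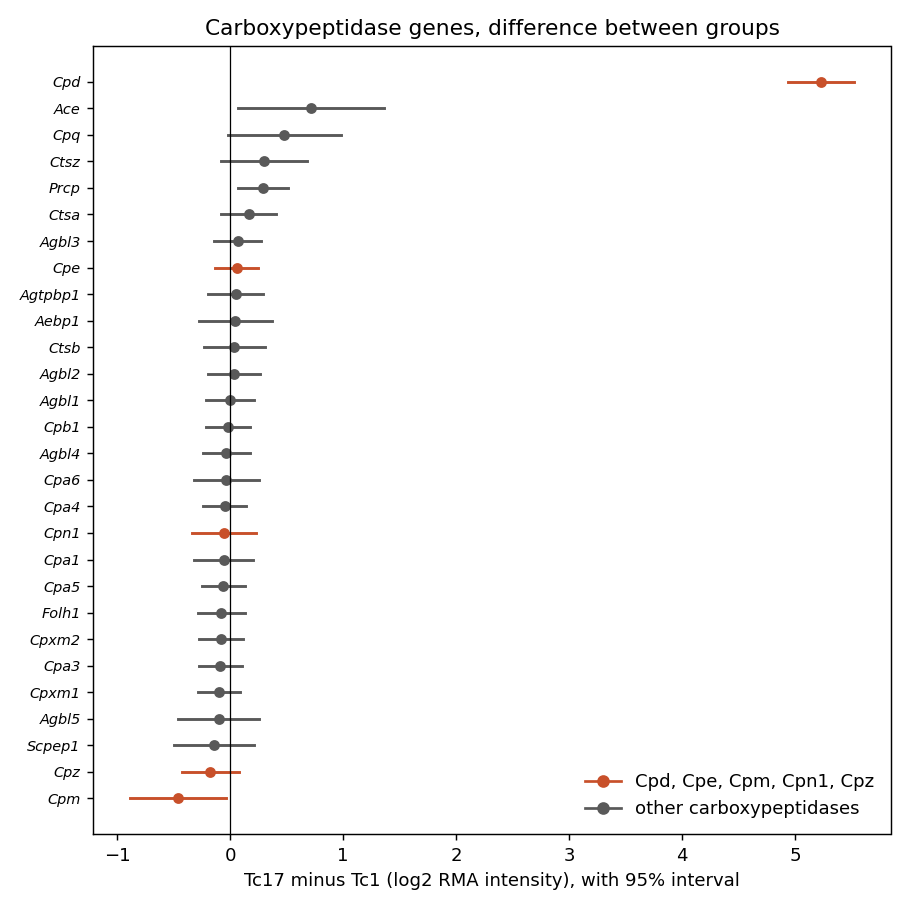
Difference between the groups (Tc17 minus Tc1, log2 RMA intensity) with its 95% interval for the 5 members in orange and 23 other carboxypeptidase genes in grey, from 2 samples per group. Cpd lies at 5.23, and the other 27 genes lie between -0.46 (Cpm) and 0.72 (Ace).

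The enzymes that act before carboxypeptidase D did not pass the test. Among 9 measured proprotein convertases and their binding proteins none was called by limma (1 had an unadjusted p under 0.05), and the median difference was -0.07. Furin, the main convertase of the trans-Golgi network, measured 12.76, 12.75 and 12.74 on the Tc1 arrays and 12.61, 12.11 and 12.16 on the Tc17 arrays. Its difference was -0.38 ± 0.17 (log2, SE; limma adjusted p = 0.465), and Tc17 sample 1 lay nearer to Tc1 than sample 2 did. Pcsk1, a convertase of endocrine granules, and Mbtps1, the site-1 protease gene, had differences of 0.26 and 0.19 (limma adjusted p = 0.321 and 0.413). Pcsk1 lay below the median of every array. None of 8 neuroendocrine processing and granule genes besides Cpe passed in limma's test (1 at an unadjusted p under 0.05), with a median of 0.00469 and Pam, the peptide-amidating enzyme gene, at -0.27.

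Precursor proteins that furin-type convertases cut were measured for 19 genes, and 2 of them, Itgae and Igf1r, rose in Tc17 by limma's test, beside 1.58% of all genes called. None was called lower, and the median difference was 0.12. Of the 19, 8 had an unadjusted p under 0.05, beside 15.9% of all genes. Itgae, the CD103 integrin chain, rose from 5.77 ± 0.14 to 10.96 ± 0.02 (log2, SD, n = 2), a difference of 5.19 ± 0.10 (SE; limma adjusted p = 0.00162). Its Tc1 mean was below every array median. Igf1r, the receptor of insulin-like growth factor 1, rose from 7.78 ± 0.16 to 9.13 ± 0.05, or 2.54-fold (limma adjusted p = 0.0199). The Igf1r call ended when any 1 of the 4 samples was left out (limma adjusted p = 0.0684 to 0.113). Tgfb3, Mmp14 and Pdgfa, with differences of 0.95, 0.75 and 0.68, were not called (limma adjusted p = 0.159, 0.27 and 0.0877). With the replicate number as a block, these genes were called higher (limma adjusted p = 0.00938, 0.0167 and 0.0456). Tgfb3 and Pdgfa were called with the sample as a random block too (limma adjusted p = 0.0192 and 0.0189). Adam17, a sheddase gene picked after its value was seen, had a difference of -0.38, with a 95% interval below 0 before adjustment for the number of genes. It was called lower with the sample as a random block (limma adjusted p = 0.0325). It was also called lower with 6 separate arrays (limma adjusted p = 0.0261), a fit that counts each technical array as a further sample. The random block keeps all 6 arrays too, with a correlation shared by all probe sets. It called 2074 probe sets, beside 418 in the main fit and 2318 with 6 separate arrays, so calls made only there are weak.

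Among 16 genes of trans-Golgi sorting and recycling, the route that carboxypeptidase D follows, Igf2r fell by limma's test and none was called higher. The median difference was 0.03, and 4 had an unadjusted p under 0.05, beside 15.9% of all genes. Igf2r, the cation-independent mannose 6-phosphate receptor, fell from 10.46 ± 0.09 to 9.50 ± 0.09 (log2, SD, n = 2), or 1.94-fold (limma adjusted p = 0.0334). The call ended when any 1 sample was left out (limma adjusted p = 0.118 to 0.18). M6pr, the other mannose 6-phosphate receptor, had a difference of -0.30, and the retromer gene Vps26a and the Golgi marker gene Tgoln1 had 0.31 and 0.27. These 3 did not pass (limma adjusted p = 0.257, 0.222 and 0.337). A dimmer probe set of Tgoln1 measured 7.35 in Tc1 and 7.25 in Tc17, a difference of -0.10. Vps26a was called higher with 6 separate arrays or with the random block (limma adjusted p = 0.0387 and 0.0495). In the same 2 settings M6pr was called lower (limma adjusted p = 0.0383 and 0.049).

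Of 12 arginine and nitric oxide genes, Nos2, the inducible nitric oxide synthase, rose by limma's test and none was called lower. The median difference was 0.04, and 4 had an unadjusted p under 0.05, beside 15.9% of all genes. Nos2 measured 6.67, 7.02 and 6.78 on the Tc1 arrays and 10.08, 9.95 and 9.90 on the Tc17 arrays, with no overlap. The difference was 3.22 ± 0.12 (log2, SE; limma adjusted p = 0.00481), or 9.32-fold, and it passed without each of the 4 samples in turn (limma adjusted p = 0.0281 to 0.0366). Ddah2, which breaks down an inhibitor of nitric oxide synthases, had a difference of -0.82, and the arginine transporter gene Slc7a2 and arginase 1 (Arg1) had 0.78 and 0.64 (limma adjusted p = 0.186, 0.276 and 0.102). The arrays of the groups did not overlap for 5 of the 12, Ddah2, Slc7a2 and Arg1 among them, beside 29.7% of all genes. Ddah2 was called lower in 4 of the alternatives (limma adjusted p = 0.0157 to 0.0271). Arg1 was called higher with the sample as a random block or the replicate number as a block (limma adjusted p = 0.0162 and 0.0313).

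Substrate peptides and other trimming enzymes were represented by the last lists. None of 8 measured anaphylatoxin and kinin genes passed limma's test (2 at an unadjusted p under 0.05; median 0.08), with C3ar1, the receptor of C3a, at 4.96 in Tc1 and 5.29 in Tc17. None of 12 aminopeptidases and other surface peptidases passed it either, and 5 of their differences were above 0, with a median of -0.07. Of the 12, 5 had an unadjusted p under 0.05, beside 15.9% of all genes. The largest difference of this list was that of Anpep, at 0.55 (limma adjusted p = 0.309). Erap1, which trims peptides for MHC class I, had a difference of -0.49 (limma adjusted p = 0.0926). With the sample as a random block, Erap1 was called lower and C3ar1 higher (limma adjusted p = 0.00597 and 0.0236). C3ar1 lay below the median of every array, so its signal above background was not shown. Over all 11 lists, leaving out the 5 members, 4 of 106 measured genes were called (3.77%, beside 1.58% of all genes), 3 higher and 1 lower. Because the lists were chosen with earlier results of these data known, nothing is read from this share or from the counts of single lists. Leaving out any 1 of the 4 samples left 2 of these calls, Itgae and Nos2.

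**Figure D3:**
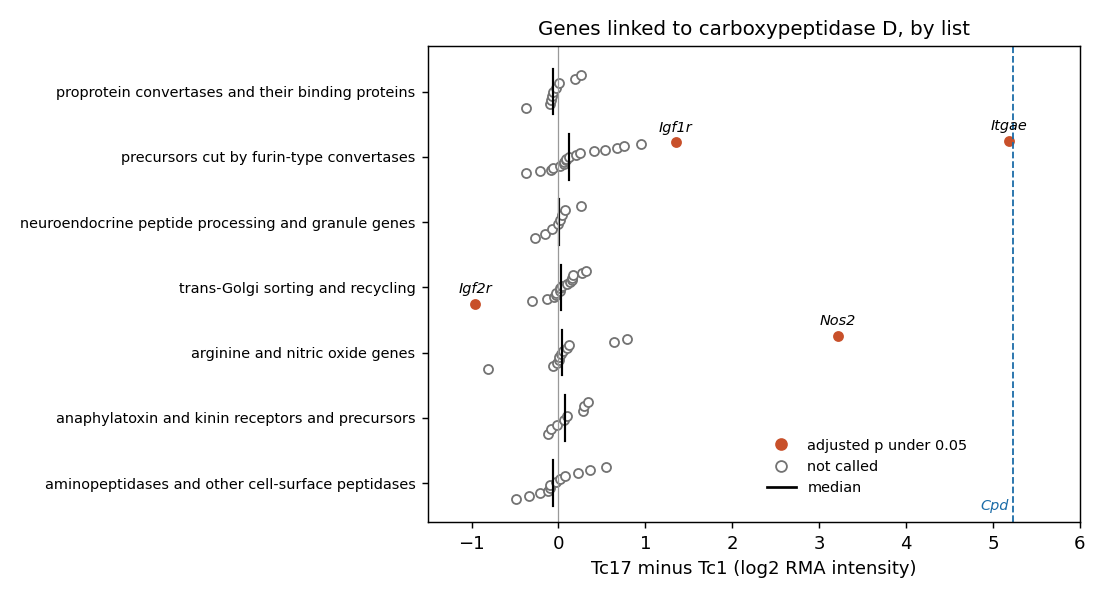
Difference between the groups (Tc17 minus Tc1, log2 RMA intensity) for each measured gene of 7 lists linked to carboxypeptidase D, with filled orange points for genes at a limma adjusted p under 0.05, open points for the others, a black line at each list's median and a dashed line at the Cpd value of 5.23. Of the called genes, Itgae lies next to the Cpd line, Nos2 and Igf1r lie to the right of 0, and Igf2r lies at -0.96.

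No measured gene beside Cpd had a difference of that size. RefSeq (GRCm38.p6) places Cpd on chromosome 11, and the 4 protein-coding genes on each side had differences from -0.34 to 0.29. None of these neighbours was called by limma, and 2 had an unadjusted p under 0.05, beside 15.9% of all genes. Gosr1, the neighbouring gene of a Golgi SNARE protein, measured 10.57 ± 0.12 in Tc1 and 10.69 ± 0.01 in Tc17 (log2, SD, n = 2). On the other side, Tmigd1 had a difference of 0.29 and Blmh, the gene of bleomycin hydrolase, -0.34 (limma adjusted p = 0.247 and 0.206). In alternative fits, Blmh was called lower with 6 separate arrays or with the random block (limma adjusted p = 0.0421 and 0.0496). Tmigd1, Trarg1 and Slc6a4 lay below the median of every array, so their signal above background was not shown.

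**Figure D4:**
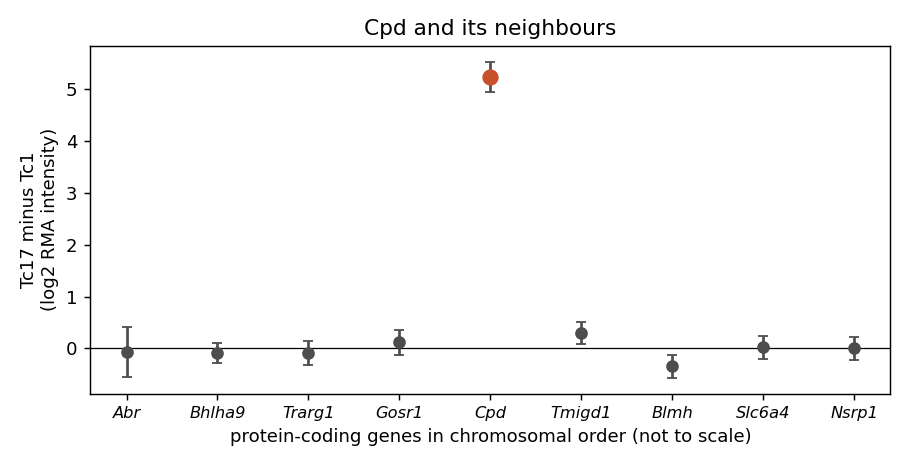
Difference between the groups (Tc17 minus Tc1, log2 RMA intensity, points) with its 95% interval (bars) for Cpd and the 4 protein-coding genes on each side of it, placed in chromosomal order without scale. Cpd lies at 5.23, and the 8 neighbours lie between -0.34 (Blmh) and 0.29 (Tmigd1).

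The gene with the pattern most like Cpd was Itgae. Likeness was the Euclidean distance between log2 values of the 4 samples after each gene was centred on its own mean, so it reads both the size of the group difference and the spread within groups. Genes with provisional symbols (Gm numbers, Rik and LOC names) were passed over. The distance was 0.0965 for Itgae, 0.504 for Il17a, 0.907 for Il17f, 1.00 for Ahr (the aryl hydrocarbon receptor) and 1.24 for the cytokine gene Il21. After centring, Itgae measured -2.50 and -2.69 in Tc1 samples 1 and 2, and 2.58 and 2.61 in Tc17 samples 1 and 2. Il17a was higher in Tc17 sample 1 (2.96) than in sample 2 (2.25), a spread that Cpd and Itgae did not have. These 5 were picked for likeness over 4 samples, in which most of the variation is the group difference, so the distances are a description without a test.

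**Figure D5:**
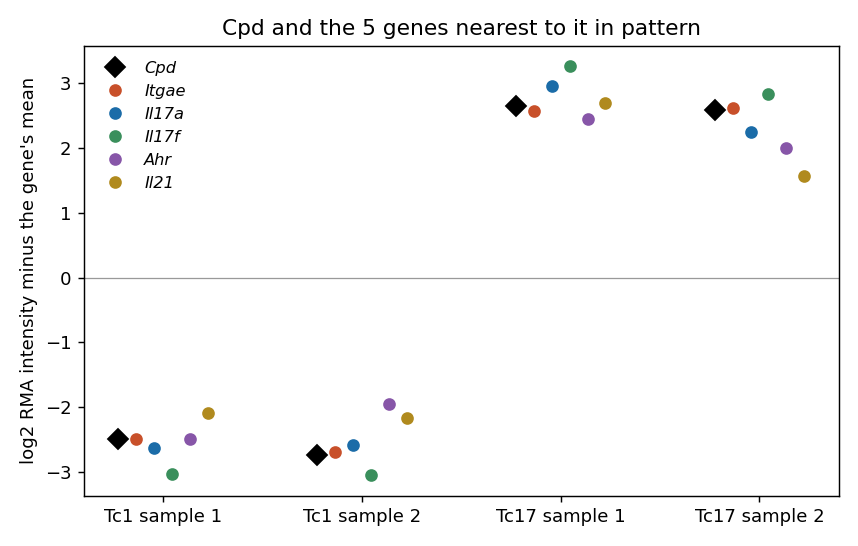
Log2 RMA intensity minus the gene's own mean in each of the 4 samples, for Cpd (black diamonds) and the 5 genes with the smallest distance to it (coloured circles). Genes with provisional symbols were passed over. Itgae overlies Cpd most closely, with a distance of 0.0965, and Il21 differs most among the 5, with 1.24.

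The labelled cell type and conditions were checked on their marker genes. Of the 4 measured condition genes, Il17a and Il17f rose in Tc17 by 5.21 and 6.09 on the log2 scale and Ifng fell by 5.49 and Tbx21 fell by 2.79 (limma adjusted p = 0.0071, 0.0024, 0.0056 and 0.0027). The Il17a call ended without Tc1 sample 1 or Tc1 sample 2 (limma adjusted p = 0.0538 and 0.0609). The CD8 genes Cd8a and Cd8b1 had differences of -0.13 and -0.03. Of 6 measured T cell genes none was called, and 4 differences were above 0. The largest were those of Cd5 and Cd2, at 0.45 and 0.44 (limma adjusted p = 0.174 and 0.134). Of the 6, 2 had an unadjusted p under 0.05, beside 15.9% of all genes. The arrays did not overlap for 3 of the 6, beside 29.7% of all genes. Of 7 macrophage and monocyte markers, which matter here because macrophages can hold both Cpd and Cpm, 1 rose (Lyz2, from 5.44 to 8.97). Beside 15.9% of all genes, 4 of these markers had an unadjusted p under 0.05, and 6 of their differences were above 0. Their summed level ran from 42.7 to 44.0 on the Tc1 arrays and from 47.0 to 48.1 on the Tc17 arrays, and without Lyz2 from 37.2 to 38.4 and from 38.2 to 38.9. Csf1r measured 6.28 in Tc1 and 6.56 in Tc17, Adgre1 4.85 and 5.23, and Cd14 5.14 and 5.39. The arrays did not overlap for 4 of the 7 markers, these 3 and Lyz2, beside 29.7% of all genes. Adgre1, Cd14 and Fcgr1 lay below the median of every array. Itgam measured 6.39 and 6.48, Fcgr1 5.08 and 5.10, and Cd68 9.99 and 9.85. The part of such cells in the Cpd difference was not tested. Among 10 marker lists of other cells, Lyz2 and the granulocyte marker Ly6g (7.07 in Tc1 and 9.60 in Tc17) were the calls. The Lyz2 call ended without Tc1 sample 2 (limma adjusted p = 0.055), and the Ly6g call without Tc1 sample 1 or 2 (0.0767 and 0.0856). The other 3 granulocyte markers, S100a8, S100a9 and Mpo, lay below the median of every array. The B cell, NK cell, mast cell, dendritic cell, platelet, erythroid, stromal and CD4 T cell lists had none in limma's test, and 2 of their genes had an unadjusted p under 0.05, Cd79b (9.80 in Tc1 and 10.32 in Tc17) and Pf4 (4.99 and 5.33).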

How the data were processed

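The deposited values were log2 intensities of 41345 probe sets on 6 single-colour Affymetrix arrays of biotin-labelled total RNA. RMA and Partek, without versions, are named for them in the submitters' processing notes. RMA normalizes arrays by quantiles and summarizes probes. The build behind the array annotation was not given in those sources, and probe sets carry no coordinates. Symbols came from the platform annotation, and of several probe sets with 1 and the same symbol the brightest on average stood for the gene.

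The technical array was averaged with sample 2, leaving 2 samples per group. limma 3.58.1 in R 4.3.3 (lmFit, eBayes, a mean per group) was fitted to all probe sets without a filter, with Benjamini-Hochberg adjustment and calls at an adjusted p under 0.05. Moderation added 2.63 degrees of freedom to the 2 among samples. The number of arrays limits precision. The procedure was tested on simulated data.

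The members and the 11 gene lists were chosen with earlier results of these data known. Genes named were all members, called list genes, up to 3 uncalled genes of a list with the largest differences, the 5 nearest patterns, 4 neighbours on each side and the condition genes. Other genes named for their role were chosen after their values were seen. A planned ranking of patterns on uncentred levels is not given, because levels of different probe sets are not comparable. Alternatives covered the technical array, the replicate number, normalization, a filter on level, eBayes settings, each sample left out and averaging all probe sets of a gene. Figures used matplotlib 3.10.9.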

Additional observations from a re-analysis of the deposited data

How the results depend on the processing

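The Cpd difference stayed between 5.11 and 5.36 on the log2 scale in all 14 alternatives, and Cpm and Cpz stayed below 0 in all 14 of theirs. Cpe ran from 0.03 to 0.09 (0.03 to 0.08 leaving out each sample, 0.091 with the technical array left out). Cpn1 ran from -0.17 to 0.04, above 0 without Tc1 sample 2 or Tc17 sample 2, and the filter on level removed Cpe and Cpn1. The number of called probe sets, 418, was 1581 with the technical array averaged with sample 1, 2318 with 6 separate arrays, 2074 with the sample as a random block, 648 above the median level and 48 to 125 leaving out each sample. With the replicate number as a block it was 1535. The labels do not say that a number marks a shared culture, and the deviations of same-numbered samples correlated with r = 0.31 over probe sets, from 2 pairs. The 4 called genes of the related lists became 8, 14, 14 and 9 under the technical array with sample 1, separate arrays, random block and replicate block, 7 when all probe sets of a gene were averaged, and 2 leaving out each sample. The 0 called among other carboxypeptidases became 1 (Ace, limma adjusted p = 0.0208) with the technical array averaged with sample 1. The cause of these shifts was not tested.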
